A study of Homo sapiens with 4 samples.

Results

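The genes described here are 33 interferon-stimulated effector genes, the genes whose products carry out the antiviral response. They were found by gene symbol among the 60623 genes of the deposited table, and each of the 33 was present. Of these, 32 had enough reads to be tested and XAF1 did not. The study sequenced RNA of T24, an established human cell line from a bladder cancer, in 4 libraries. In 2 libraries, called scramble, the cells had received a control molecule. In the other 2 they carried an excess of miR-146a-5p, which the study's description attributes to a transfected mimic and the sample labels call overexpression. The labels give no dose and no time after transfection, and both groups share the same parental line with no other named treatment. No label says that the 2 libraries of a group were separate cultures. The p-values thus reflect no more than the library-to-library spread, which may be technical.

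Type I and type III interferons are secreted when a cell detects foreign nucleic acid. Their receptors use the kinases JAK1 and TYK2 to activate transcription factors, among them STAT2, which acts with IRF9 at the interferon-stimulated response element (ISRE) in the promoters of target genes. The products of those genes bind viral RNA, block entry or budding, deplete nucleotides or mark proteins with ISG15. miR-146a-5p is itself known as a brake on innate immune signalling, through targets such as IRAK1 and TRAF6. The scramble libraries stood apart from each other: 24.5% of all tested genes differed more than 2-fold between them, so values are given against each.

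Most of the effector genes stood higher with miR-146a-5p, and none passed the test. With edgeR's quasi-likelihood test 0 of the 32 tested members were called at an adjusted p under 0.05, and 0 of the 14810 tested genes were called (0% of them). At an unadjusted p under 0.05 there were 5 members (CMPK2, IFIT1, HERC6, IFI27 and IFI44L), against 549 of all tested genes (3.71%). DESeq2 called 0 members, against 52 of 16044 genes (0.324%), and had 8 members at an unadjusted p under 0.05, against 434 of 25804 genes (1.68%). The authors' deposited table likewise lists 0 members as significant, with its lowest adjusted p at 0.161 for IFIT1. In 23 of the 32 members both miR-146a-5p libraries lay above both scramble libraries, a placement that 18.0% of all tested genes had. In 0 members did both miR-146a-5p libraries lie below both scramble libraries, which was so for 18.0% of all tested genes. The groups overlapped in the other 9 members. The fitted log2 fold change was positive in 28 members (49.9% of all tested genes), and its median was 0.70, against -0.001443 over all tested genes.

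The size of the difference depended on which scramble library it was measured from. Against scramble replicate 1 the median log2 difference of the members was 0.55, and against scramble replicate 2 it was 0.84. The corresponding medians over all tested genes were -0.001299 and -0.01759. A total of 10 members lay at least 1.5-fold above each scramble library in the mean of the miR-146a-5p libraries, against 3.19% of all tested genes. They were IFIT1, IFIT2, HERC6, MX2, CMPK2, RSAD2, DDX60, SAMD9, IFI44 and IFI44L. The 1.5-fold rule was chosen after the values were seen.

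**Figure D1:**
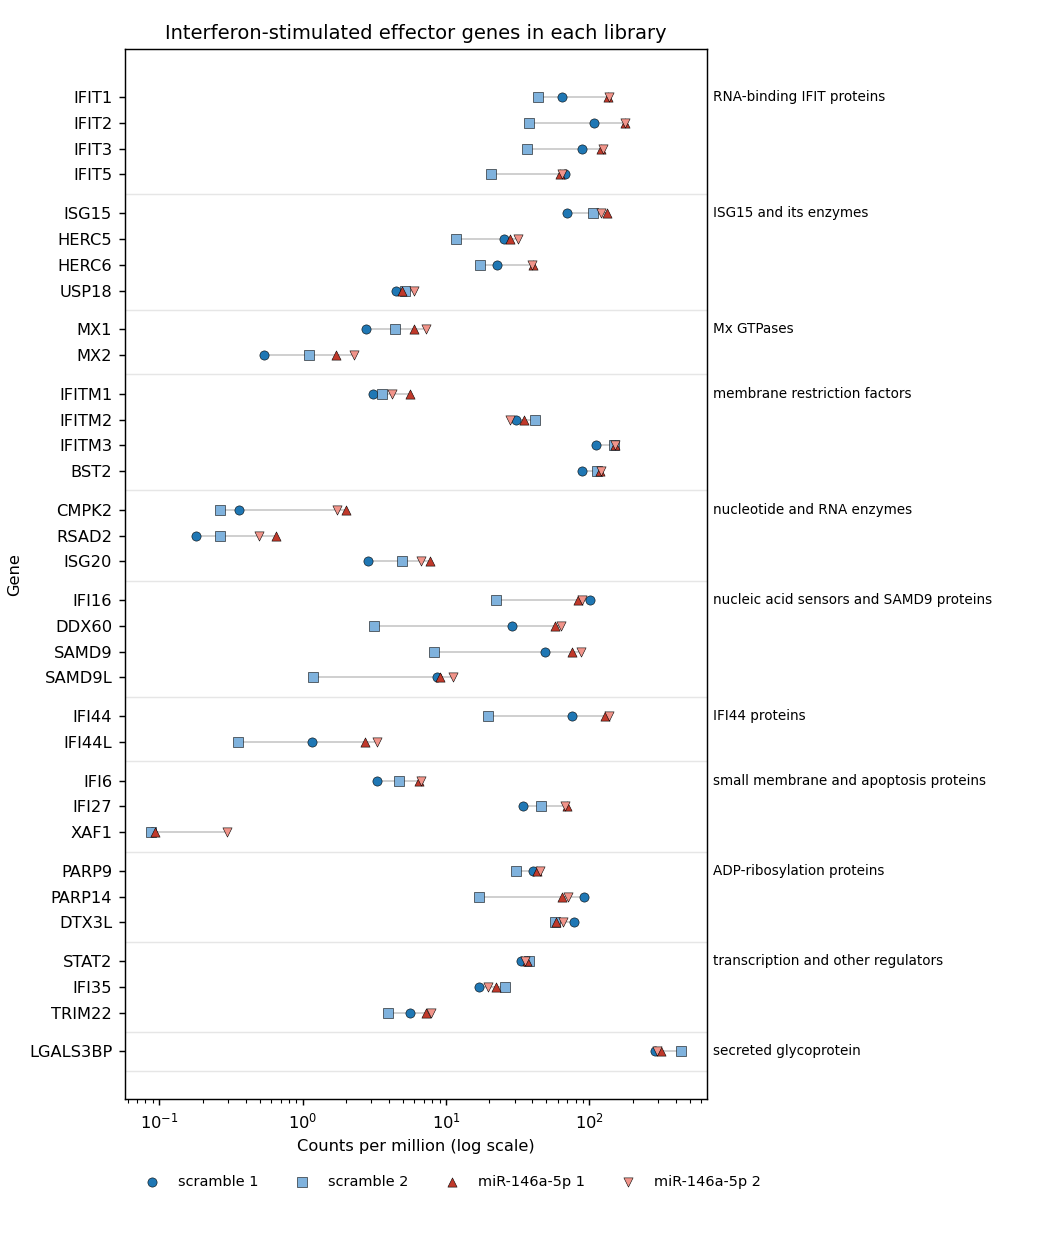
CPM (log axis) of the 33 effector genes in each of the 4 libraries, grouped by role, with scramble in blue and miR-146a-5p in red. The miR-146a-5p libraries lie close together in most genes, while the scramble libraries are up to 9.06-fold apart (DDX60).

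Sequences are shown for the microRNA and for the promoter element known from interferon signalling. The mature miR-146a-5p (RefSeq, GRCh38.p14, chr5:160485372-160485393, plus strand) is given with its seed, bases 2 to 8, in capitals.
hsa-miR-146a-5p: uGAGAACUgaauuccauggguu
A seed match was found in the 3' UTR of 8 of the 32 tested members (25%), against 2594 of 12345 tested genes with an annotated UTR (21.01%). The search was chosen after the data were seen and used the longest protein-coding transcript in GENCODE 29. The match of 8 bases occurred in 1 member, IFIT3 (GRCh38, chr10:89340689-89340696, plus strand), shown with its flanks and the match in capitals.
IFIT3: tgatgctgattAGTTCTCAgttttcattca
The other 7 members, with shorter matches of 7 bases, were IFIT1, SAMD9L, IFI6, PARP9, IFI35, TRIM22 and LGALS3BP, and PARP9 held 4 of them. IFIT3, which holds the longest match, stood above both scramble libraries.

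Promoter windows of 300 bases, from 250 before to 50 after each start of transcription, were available for 28 of the 33 members (RefSeq, GRCh38.p14). IFIT2, MX2, IFITM2, TRIM22 and USP18 had no entry. The ISRE core was searched on both strands as GAAA, 2 bases of any kind, GAAA. It was present for 21 of the 28 members (75%), against 1195 of 27305 genes (4.38%). The members were listed as interferon-stimulated genes, so a high share comes with the list and is no result of these libraries. The GAS core, TTCNNNGAA, the element read in interferon gamma signalling, was present for 7 of the 28 (25%), against 2560 genes (9.38%). A match is a description of these letters and not a binding site. These windows cover members with a core that lay at least 1.5-fold above each scramble library. Each is 60 bases on the gene's strand with a core in capitals. IFIT1, DDX60 and IFI44L each had a further core, and that of IFIT1 lies in lower case within the window shown. A core written TTTC is on the opposite strand.
IFIT1, chr10:89392482-89392541, plus strand: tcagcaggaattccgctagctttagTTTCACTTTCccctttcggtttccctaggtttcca
RSAD2, chr2:6877607-6877666, plus strand: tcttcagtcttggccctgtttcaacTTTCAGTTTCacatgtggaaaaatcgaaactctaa
DDX60, chr4:168318771-168318830, minus strand: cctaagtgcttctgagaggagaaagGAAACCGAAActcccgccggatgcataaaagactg
SAMD9, chr7:93118081-93118140, minus strand: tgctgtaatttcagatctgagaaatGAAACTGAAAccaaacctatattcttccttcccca
IFI44, chr1:78649746-78649805, plus strand: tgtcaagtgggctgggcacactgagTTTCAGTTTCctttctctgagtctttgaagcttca
IFI44L, chr1:78620259-78620318, plus strand: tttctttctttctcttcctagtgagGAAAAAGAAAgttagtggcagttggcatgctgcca
The next windows are from members with a core whose groups overlapped, for comparison. IFIT5, which also held cores and overlapped, is not shown.
PARP14, chr3:122680785-122680844, plus strand: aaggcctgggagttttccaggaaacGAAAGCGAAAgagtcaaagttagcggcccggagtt
DTX3L, chr3:122564307-122564366, plus strand: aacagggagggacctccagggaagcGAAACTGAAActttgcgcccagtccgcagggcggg
LGALS3BP, chr17:78979947-78980006, minus strand: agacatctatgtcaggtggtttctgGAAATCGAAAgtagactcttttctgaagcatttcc
The DTX3L core is also the core of PARP9, which starts nearby on the opposite strand. The core was present both in members far above the scramble libraries and in members that overlapped them. The 21 members with a core had a median log2 fold change of 0.71, and in 17 both miR-146a-5p libraries lay above both scramble libraries. The 6 tested members without a core in the window (HERC6, CMPK2, IFI16, SAMD9L, STAT2 and IFI35) had a median of 0.74, with 3 above both. These medians were less alike against each scramble library. Members with a core had a median log2 difference of 0.72 from scramble replicate 1 and 0.57 from replicate 2. Those without had 0.26 and 1.58. CMPK2, with no core in its window, had the largest fold change of all members.

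**Figure D2:**
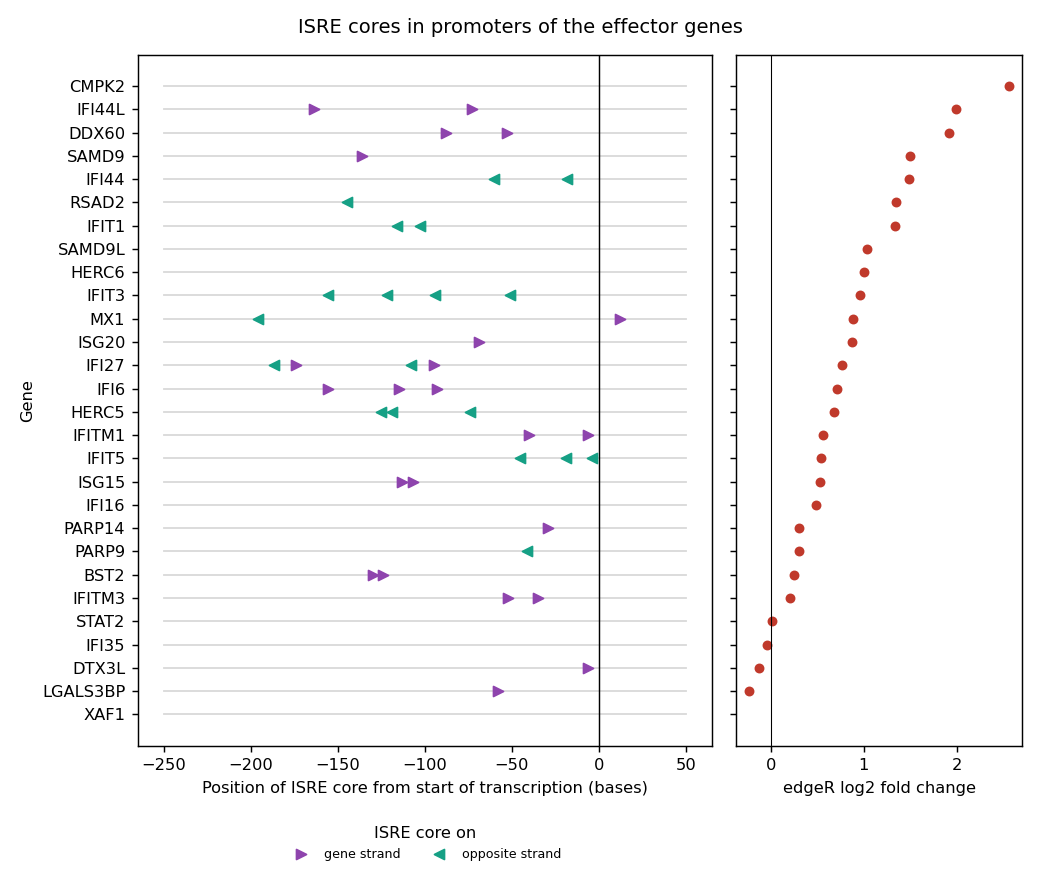
Position of each ISRE core relative to the start of transcription (bases, left) and edgeR log2 fold change (right) for the 28 members with a promoter window, ordered by fold change. Arrows give the strand, and a gene with several starts is drawn with the cores of each, so a core can appear more than once (IFI27, IFI44).

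The IFIT proteins bind viral RNA with foreign 5' ends. Values are CPM, each gene's share of the library's total count on a common scale, given first for scramble replicates 1 and 2 and then for the miR-146a-5p libraries. IFIT1, which recognises RNA caps lacking 2'-O methylation, was at 64.0 and 43.5 CPM in scramble and at 135 and 137 CPM with miR-146a-5p. Its groups did not overlap, and the edgeR log2 fold change was 1.34 ± 0.26 (SE). The adjusted p of IFIT1 was 0.970 with edgeR and 0.160 with DESeq2. IFIT2, a partner of IFIT1 and IFIT3, was at 107 and 38 CPM against 178 and 177 CPM. IFIT3, which stabilises IFIT1 on RNA, was at 88.8 and 36.8 CPM against 120.5 and 124 CPM. Both lay above scramble, and in both scramble replicate 2 was far below replicate 1. IFIT5 was at 67.1 and 20.5 CPM against 62.7 and 64.4 CPM. The miR-146a-5p libraries of IFIT5 lay below scramble replicate 1 and 3.10-fold above replicate 2. The 4 genes, all on chromosome 10, had a median log2 difference of 0.60 against scramble replicate 1 and 1.69 against replicate 2.

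ISG15 is a ubiquitin-like modifier that is attached to other proteins. ISG15 was at 69.5 and 106 CPM in scramble and at 133 and 119.5 CPM with miR-146a-5p, with a log2 fold change of 0.52 ± 0.28 (SE). HERC5, its main human ligase, was at 25.5 and 11.8 CPM against 28.1 and 31.7 CPM. HERC6, a related protein that lies beside HERC5 on chromosome 4, was at 22.7 and 17.2 CPM against 40.4 and 39.8 CPM. All 3 stood above both scramble libraries, and only HERC6 by at least 1.5-fold over each. HERC6 had a log2 fold change of 1.00 ± 0.24 (SE) and an unadjusted edgeR p of 0.0114. USP18, which removes ISG15 and also restrains the interferon receptor, was at 4.47 and 5.14 CPM against 4.92 and 5.96 CPM. Its groups overlapped. The enzymes ahead of HERC5 in the same conjugation path are the activating enzyme UBA7 and the conjugating enzyme UBE2L6. UBA7 was at 11.9 and 12.9 CPM against 11.5 and 11.9 CPM. UBE2L6 was at 26.5 and 39.1 CPM against 35.5 and 32.5 CPM, and both overlapped.

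The Mx GTPases assemble on viral capsids and ribonucleoproteins. MX1 was at 2.77 and 4.43 CPM in scramble and at 5.99 and 7.29 CPM with miR-146a-5p. MX2 was at 0.536 and 1.10 CPM against 1.72 and 2.27 CPM, from counts of 12, 25, 37 and 46. Both genes, on chromosome 21, lay above scramble without overlap. Their log2 fold changes were 0.88 ± 0.34 and 1.28 ± 0.49 (SE), and unlike the IFIT genes both were further from scramble replicate 1 than from replicate 2.

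Of the 4 membrane-bound restriction factors, 3 stood above both scramble libraries (IFITM1, IFITM3 and BST2). IFITM1, which blocks viral fusion at the cell surface, was at 3.08 and 3.56 CPM against 5.62 and 4.19 CPM. IFITM2, which acts in endosomes, was at 30.9 and 42.0 CPM against 34.8 and 28.1 CPM. IFITM3, also endosomal, was at 112 and 149 CPM against 151 and 151 CPM. The groups of IFITM2 overlapped, and IFITM3 stood barely above scramble replicate 2. The mean of IFITM1 was 1.59-fold above scramble replicate 1 and 1.38-fold above replicate 2. BST2 (tetherin), which holds budding virions at the membrane, was at 89.0 and 112 CPM against 119 and 121 CPM. The 4 genes had a median log2 fold change of 0.23. The IFITM genes, which are near copies of each other, carried fractional counts, as did IFIT2, USP18, IFI27, XAF1, PARP9, DTX3L and TRIM22. The origin of the fractions is not stated. Whether reads were divided among similar or overlapping genes is thus uncertain, and so are these counts.

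The largest difference among the members was in CMPK2, a mitochondrial nucleotide kinase. CMPK2 was at 0.357 and 0.264 CPM in scramble and at 2.00 and 1.73 CPM with miR-146a-5p, from estimated counts of 8, 6, 43 and 35. The miR-146a-5p mean was 5.21-fold above scramble replicate 1 and 7.06-fold above replicate 2. The edgeR log2 fold change was 2.56 ± 0.42 (SE). The adjusted p of CMPK2 was 0.970 with edgeR and 0.196 with DESeq2. RSAD2 (viperin), which makes a chain-terminating nucleotide, was at 0.179 and 0.264 CPM against 0.650 and 0.493 CPM, from counts of 4, 6, 14 and 10. CMPK2 and RSAD2 are neighbours on chromosome 2 on opposite strands, and no source used here says whether the authors counted by strand. ISG20, an exonuclease that degrades RNA, was at 2.86 and 4.96 CPM against 7.71 and 6.65 CPM. All 3 genes lay above both scramble libraries.

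IFI16, DDX60, SAMD9 and SAMD9L are nucleic acid sensors and growth-restraining proteins, and DDX60, SAMD9L and SAMD9 had the widest gaps between the scramble libraries of all members. IFI16, a sensor of DNA, was at 100 and 22.2 CPM in scramble and at 83.0 and 88.1 CPM with miR-146a-5p. Its miR-146a-5p libraries lay between the scramble libraries. DDX60, a helicase linked to RNA sensing, was at 28.6 and 3.16 CPM against 57.5 and 62.8 CPM. SAMD9, an antiviral and growth-restraining protein, was at 49.2 and 8.21 CPM against 75.4 and 87.3 CPM. SAMD9L, its neighbour on chromosome 7, was at 8.66 and 1.19 CPM against 9.01 and 11.2 CPM. The miR-146a-5p mean of DDX60 was 2.10-fold above scramble replicate 1 and 19.0-fold above replicate 2. That of SAMD9L was 1.17-fold above replicate 1 and 8.54-fold above replicate 2. The median log2 difference of the 4 genes was 0.47 against replicate 1 and 3.14 against replicate 2.

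The paired chromosome 1 genes IFI44 and IFI44L encode cytoplasmic interferon-induced proteins. IFI44 was at 75.2 and 19.7 CPM in scramble and at 128 and 138 CPM with miR-146a-5p. IFI44L was at 1.16 and 0.351 CPM against 2.74 and 3.30 CPM, from counts of 26, 8, 59 and 67. Both lay well above each scramble library, with log2 fold changes of 1.48 ± 0.68 and 1.99 ± 0.63 (SE). IFI6, a small membrane protein of the endoplasmic reticulum and mitochondria, was at 3.31 and 4.70 CPM against 6.45 and 6.70 CPM. IFI27, a related small protein, was at 34.4 and 45.8 CPM against 69.6 and 67.0 CPM. Both were above scramble without overlap, and IFI27 had an unadjusted edgeR p of 0.0285. XAF1, which opposes the apoptosis inhibitor XIAP, had estimated counts of 1.89, 2, 2 and 6 and was not tested.

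PARP9, DTX3L and PARP14, on chromosome 3, encode proteins of ADP-ribosylation. PARP9 was at 40.3 and 30.8 CPM in scramble and at 42.9 and 45.1 CPM with miR-146a-5p. DTX3L, the ubiquitin ligase that partners PARP9, was at 78.4 and 57.3 CPM against 58.7 and 65.5 CPM. PARP14, a mono-ADP-ribosyltransferase, was at 91.9 and 17.1 CPM against 63.9 and 71.2 CPM. PARP9 lay slightly above both scramble libraries, and the miR-146a-5p libraries of DTX3L and PARP14 lay between them, with PARP14 at 0.735-fold of scramble replicate 1 and 3.96-fold above replicate 2. Of the regulators, STAT2 was at 33.4 and 38.1 CPM against 36.6 and 35.7 CPM, with a log2 fold change of 0.02 ± 0.20 (SE). IFI35, a partner of NMI, was at 16.9 and 25.9 CPM against 22.2 and 19.7 CPM. Both overlapped. TRIM22, a ubiquitin ligase that restricts several viruses, was at 5.63 and 3.95 CPM against 7.29 and 7.79 CPM, above both scramble libraries. LGALS3BP, a secreted glycoprotein that binds galectins, was the most abundant member by CPM at 286 and 433 CPM against 316 and 295 CPM, and its groups overlapped.

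Compared per transcript length with the authors' TPM values, the order of abundance was different from that of CPM. IFITM3 was the highest member at a group mean of 428.8 TPM in scramble and 524.8 TPM with miR-146a-5p. ISG15 followed at 267.1 and 407.2 TPM. LGALS3BP was at 250 and 217.9 TPM. These members were thus well expressed in scramble T24 cells too. At the low end CMPK2 was at 0.28 and 0.98 TPM, RSAD2 at 0.08 and 0.3 TPM, and XAF1 at 0.050 and 0.285 TPM. Summed over the 33 members, the level was 1542.9 and 1308.3 CPM in scramble and 2010.1 and 2026.8 CPM with miR-146a-5p. In these bulk samples, more cells that express a gene and more RNA per cell cannot be told apart.

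The scramble libraries differed from each other more than 2-fold in 12 of the 32 tested members, against 24.5% of all tested genes. In 11 of the 12 scramble replicate 2 was the lower library: IFIT2, IFIT3, IFIT5, HERC5, IFI16, DDX60, SAMD9, SAMD9L, IFI44, IFI44L and PARP14. MX2 was the exception, with replicate 2 higher. No tested member differed more than 2-fold between the miR-146a-5p libraries. The 11 genes had transcripts of low GC content, from 36.05 to 44.27% with a median of 39.05%. The other 21 ran from 41.82 to 63.41% with a median of 51.57%, so the ranges overlapped. Over the 32 members the difference between the scramble libraries had a Spearman correlation of 0.848 with GC content, and over 14679 genes it was 0.756. These are correlations across genes of the same libraries, and genes are not independent replicates. The 11 genes lay at a median log2 difference of 0.46 from scramble replicate 1 and 2.22 from replicate 2, and the other 21 at 0.64 and 0.48. With offsets for GC content and length in edgeR, the members' median log2 fold change was 0.78, against -0.048 over all tested genes. That median joins shifts in opposite directions. Each of the 11 genes had a lower log2 fold change with the offsets, such as IFIT5 (0.54 to 0.18). Of the other 21, IFIT1, HERC6, RSAD2, PARP9, DTX3L and TRIM22 also had lower values. The rest had higher ones, such as ISG15 (0.52 to 0.75). Under these offsets 16 members had an unadjusted p under 0.05, against 11.2% of all tested genes, and 0 were called. The part of GC content in the differences was not tested beyond this.

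**Figure D3:**
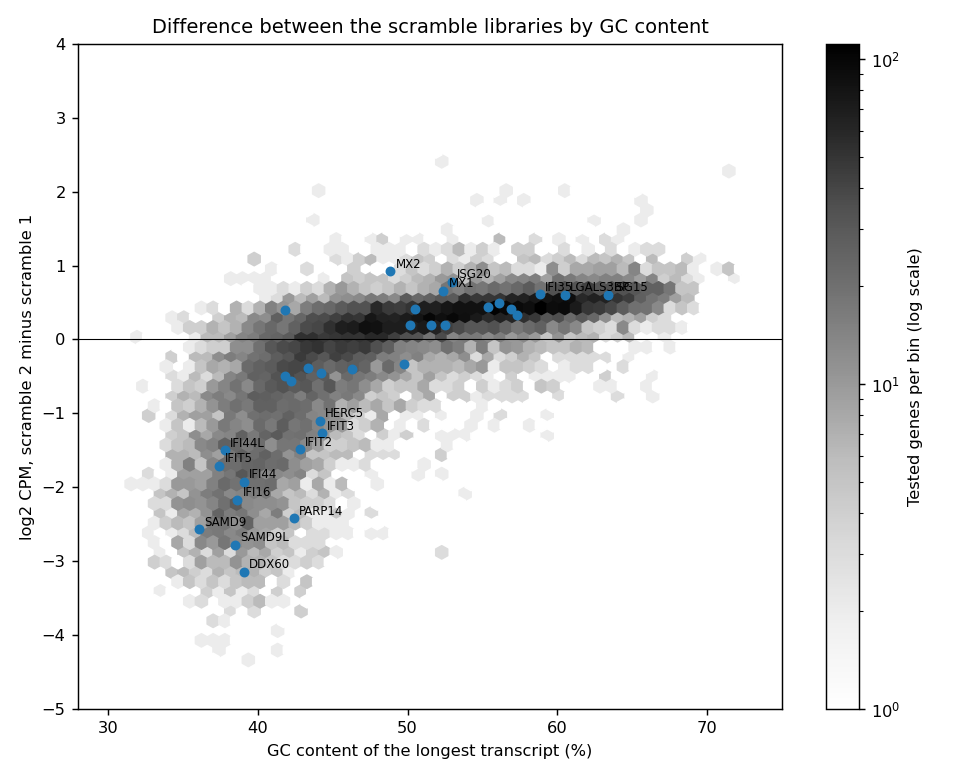
Log2 CPM difference between the scramble libraries (replicate 2 minus replicate 1) against GC content of the longest transcript (%), with the 32 tested members in blue over a density of all tested genes in grey (17 genes lie outside the axes). Several members of low GC content, such as DDX60 and SAMD9, lie far below 0, and ISG15 and MX1 lie above it.

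Each scramble library was also left out in turn, and the spread of the remaining control library was then taken from the other group. Without scramble replicate 1, edgeR called 20 members higher (28.5% of all tested genes) and 3 lower (26.4%): IFITM2, IFI35 and LGALS3BP. Without scramble replicate 2 it called 17 higher (10.1% of all tested genes) and 2 lower (11.7%): PARP14 and DTX3L. A total of 13 members were called higher in both fits, against 4.07% of all tested genes. They were IFIT1, IFIT2, IFIT3, ISG15, HERC6, MX1, CMPK2, ISG20, DDX60, SAMD9, IFI44, IFI44L and IFI27. PARP14 was called in opposite directions, with log2 fold changes of 1.98 without scramble replicate 1 and -0.43 without replicate 2. With both scramble libraries in the fit no member was called.

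**Figure D4:**
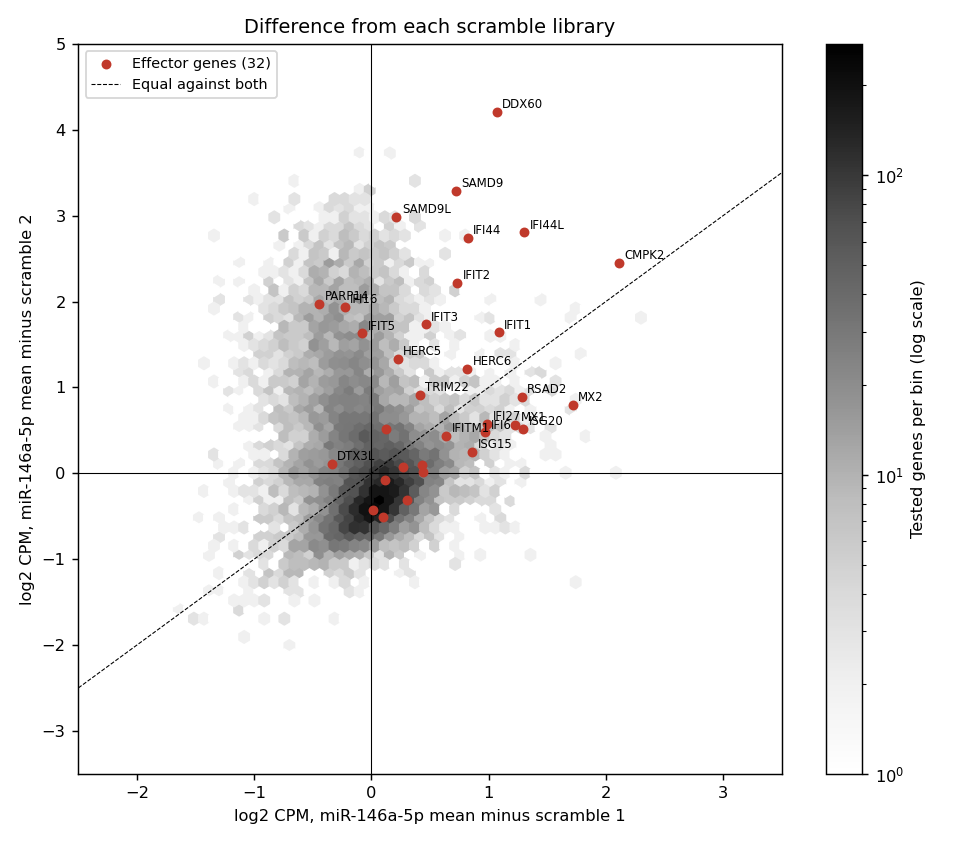
Log2 CPM difference of the miR-146a-5p mean from scramble replicate 1 (x axis) and from scramble replicate 2 (y axis), with the 32 tested members in red over a density of all tested genes in grey (25 genes lie outside the axes). Most members lie to the right of 0 and above 0, and DDX60, SAMD9 and SAMD9L lie far above the dashed line of equal difference.

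By their medians, the receptors and the kinases and transcription factors of the pathway stood closer to scramble than the effectors did. Of 21 interferon genes, 0 had enough reads to be tested and 18 had 0 counts in all 4 libraries, IFNB1 among them. A count of 0 allows up to 3 counts, or 0.132 to 0.148 CPM across the libraries, and this limit covers counting error only. The receptor chain IFNAR1 was at 62.8 and 37.7 CPM against 56.0 and 60.6 CPM, with overlapping groups. Its partner IFNAR2 was at 15.5 and 18.6 CPM against 21.1 and 19.0 CPM. IFNGR1, the ligand-binding chain for interferon gamma, was at 21.0 and 9.35 CPM against 23.9 and 25.6 CPM. IFNAR2 and IFNGR1 were the 2 receptors of 6 that lay above both scramble libraries. Of the kinases, JAK1 was at 226 and 205 CPM against 277 and 273 CPM. TYK2 was at 46.6 and 67.0 CPM against 52.8 and 49.6 CPM, with overlapping groups. IRF9, the DNA-binding partner of STAT2, was at 15.3 and 20.5 CPM against 26.1 and 27.3 CPM. IRF7, which amplifies interferon transcription, was at 3.84 and 6.10 CPM against 6.59 and 7.44 CPM. IRF9 and IRF7 lay above both scramble libraries, and neither was called. The median log2 fold change was 0.22 over the 6 receptors and 0.24 over the 9 kinases and transcription factors.

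Other genes of the same response that are not members were counted as a list. It was drawn up from general knowledge, with earlier results of these data known. Of 59 tested pathway genes outside the members, 45 had a positive log2 fold change and 20 lay above both scramble libraries, against the 18.0% of all tested genes given before. Their median was 0.21, with 4 below both scramble libraries. None was called by edgeR, which had 4 of them at an unadjusted p under 0.05, and none by DESeq2. The 13 sensors and nucleic acid enzymes had a median of 0.48, with 7 above both scramble libraries and 1 below both. Of the 13, 10 had a positive log2 fold change and 3 a negative one. DDX58, 1 of the 13, had the largest log2 fold change of the 59 genes, 1.63 ± 0.67 (SE). It was at 46.6 and 12.4 CPM in scramble and at 87.9 and 94.8 CPM with miR-146a-5p. The 25 other induced genes had a median of 0.16, with 5 above both and 3 below both. The smallest p-values were those of OAS2 and OASL, members of the oligoadenylate synthetase family, which detects double-stranded RNA. OAS2 was at 9.83 and 9.18 CPM in scramble and at 19.5 and 20.2 CPM with miR-146a-5p. OASL was at 46.0 and 57.2 CPM against 108 and 101 CPM. Both lay above scramble without overlap, with log2 fold changes of 1.06 ± 0.21 and 1.02 ± 0.22 (SE). EPSTI1 was at 9.38 and 9.0 CPM against 13.5 and 14.3 CPM. TDRD7, a restrictor of autophagy-dependent viruses, was at 40.0 and 31.6 CPM against 55.0 and 54.1 CPM. Both also lay above scramble without overlap. Of the 4 negative regulators, the phosphatase PTPN6 was at 4.91 and 7.25 CPM against 10.5 and 10.2 CPM, above both scramble libraries. SOCS3, an inhibitor of JAK kinases, was at 22.2 and 34.6 CPM against 25.8 and 25.1 CPM, between them.

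**Figure D5:**
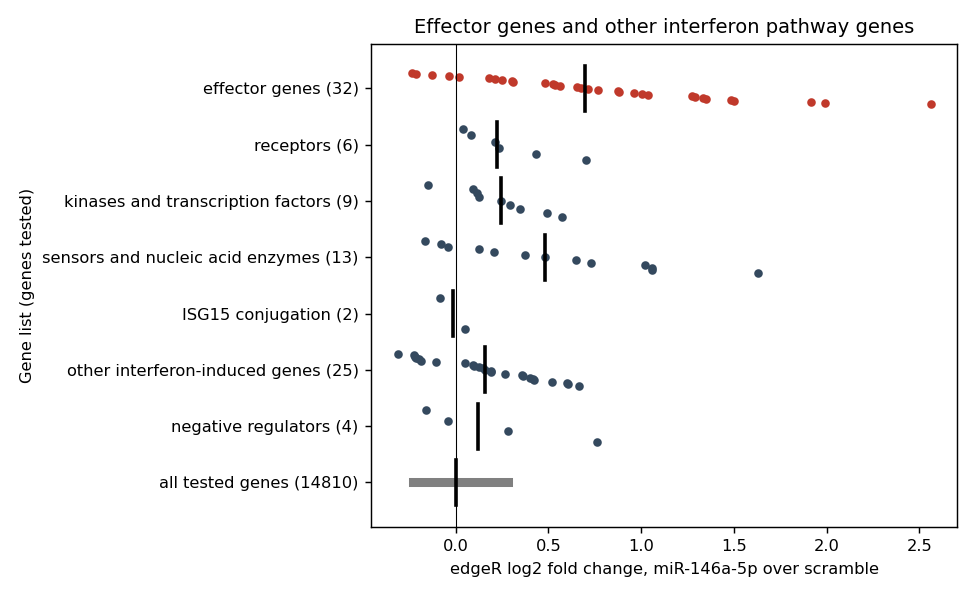
edgeR log2 fold change (miR-146a-5p over scramble) of each tested effector gene (red) and of each tested gene in 6 other lists of the interferon pathway (dark blue), with vertical ticks at medians and a grey bar for the middle 50% of all tested genes. The effector genes reach furthest to the right, with a median of 0.70, and the ISG15 conjugation list lies close to 0.

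Across the series, library totals were 20290017 to 22774060 estimated counts, and 20439 to 21206 genes had a count. As a check of the labels, IRAK1, a known miR-146a-5p target, was at 498 and 716 CPM in scramble and at 108 and 109 CPM with miR-146a-5p. DESeq2 called IRAK1 at an adjusted p of 5.03e-09, while its adjusted p with edgeR was 0.728, so the edgeR test that called no member did not call this target either. MIR3142HG, the host transcript of miR-146a, was at 1.07 and 0.395 CPM against 8.31 and 9.56 CPM, with an adjusted p of 2.71e-05 in DESeq2 and 0.959 in edgeR. How the excess was produced was not tested, and the libraries are named here by the microRNA alone.

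Markers of the labelled cell type and of other cells were read in the same libraries. Of 9 epithelial and urothelial markers, 5 were tested and none was called by edgeR or DESeq2. The keratins KRT7 (1882 to 2900 CPM) and KRT8 (1152 to 1540 CPM) were abundant and overlapped between groups. KRT18 was at 705 and 1162 CPM in scramble and at 639 and 583 CPM with miR-146a-5p. KRT19 was at 31.9 and 42.6 CPM against 15.8 and 14.5 CPM, with an unadjusted edgeR p of 0.00534 and an adjusted DESeq2 p of 0.0681. Both keratins lay below both scramble libraries. GATA3, a urothelial transcription factor, was at 0.268 and 0.220 CPM against 0.511 and 1.23 CPM, above both. KRT5 and UPK3A had 0 counts in all libraries, and UPK2 reached 0.132 CPM at most. Of the white blood cell markers, PTPRC reached 0.197 CPM at most, CD3E had 0 counts, and CD14 was at 1.07 and 1.80 CPM against 1.16 and 0.542 CPM. Summed over the 7 white blood cell markers, the level was 12.7 and 16.3 CPM in scramble and 17.2 and 13.2 CPM with miR-146a-5p, most of it CD68. The 3 plasmacytoid dendritic cell markers summed to at most 0.049 CPM in any library, and the 4 endothelial markers to at most 0.542 CPM. The 6 fibroblast markers summed to 3.31 and 3.996 CPM against 5.38 and 6.31 CPM. Of these, COL1A1 was at 1.65 and 2.55 CPM against 3.62 and 3.94 CPM, above both, and PDGFRB was at 1.07 and 1.36 CPM against 1.30 and 1.53 CPM. The part of these markers in the members' differences was not tested.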

How the data were processed

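RNA-seq libraries of T24 cells, 2 per group, were analysed from the authors' deposited table. Groups and replicate numbers came from the labels. The deposited table holds an estimated count per library and gene, TPM per library and as group means, and the authors' fold change (a ratio), log2 fold change, p-value and adjusted p-value, per the file headers. TPM served only for levels between genes, and the authors' comparison only as a quoted value. The build hg19, HTSeq 0.6.1, HISAT2 2.0.1, cutadapt 1.9.1 and DESeq2 appear in the submitters' processing notes, without roles. No source used here says which step gave fractional counts.

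Estimated counts were rounded to whole numbers. Genes passing filterByExpr (minimum count 10, minimum total 15) were tested with edgeR 4.0.16 in R 4.3.3: a two-sided quasi-likelihood test with TMM factors, a model of group alone and Benjamini-Hochberg adjustment over all tested genes at 0.05. SEs came from the F statistic. CPM used library totals, and log2 CPM a prior count of 2. DESeq2 1.42.0 and limma 3.58.1 voom were alternatives, as were RLE factors, other filters, a replicate block, GC and length offsets, and leaving out each library. Only the edgeR, DESeq2 and voom fits of all 4 libraries with group alone were tested on simulated data. The other alternatives were not. The simulated counts held no difference between libraries by GC content. Every member was accounted for, and values per library were printed for members with a mean of at least 1 CPM, for pathway genes chosen by role (some are not reported here) and for the 2 smallest p-values of each pathway list. DDX58 was added for the size of its log2 fold change, after the data were seen. The members and lists were chosen with earlier results of these data known.

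The reported test has no block for the replicate number, which no label ties to a shared culture or day.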

Additional observations from a re-analysis of the deposited data

How the results depend on the processing

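The number of members called stayed at 0 with DESeq2, limma-voom, RLE factors, no filter, a filter at 1 CPM, and GC and length offsets. With the replicate number as a block it was 0 with a median log2 fold change of 0.78. The crossed replicate block, chosen after seeing the data, also gave 0. The same-numbered libraries' correlation of deviations was -0.146, and the block called 5 of all tested genes in place of 0. Leaving out 1 library in turn gave 0 to 23 called members, with 23 without scramble replicate 1 (54.9% of all genes were called there) and 19 without scramble replicate 2 (21.7%). DESeq2 leave-outs, chosen after seeing the data, gave 17 (38.1% of all genes) and 12 (9.64%). The called pathway genes went from 0 to 36 without scramble replicate 1 and 26 without replicate 2, beside the same shares of all genes with edgeR. The members' median ranged from 0.58 to 0.92. Of 447 alternative values of single members, 435 kept their direction and 12 turned, in 8 members. Leaving out 1 library in turn moved the log2 fold change of DTX3L from -0.32 to 0.12, IFI16 from -0.22 to 1.95, IFI35 from -0.31 to 0.32, IFIT5 from -0.067 to 1.64, IFITM2 from -0.41 to 0.039, LGALS3BP from -0.50 to 0.11, PARP14 from -0.43 to 1.98 and STAT2 from -0.073 to 0.13, with the extremes without scramble replicates 1 and 2. IFI35 was also 0.13 with GC and length offsets and 0.13 with the block added, and STAT2 was -0.001035 with DESeq2. The cause of these turns was not tested. Depth limits RSAD2, CMPK2 and XAF1, which had few counts per library, and also IFI44L and MX2, which had few counts in scramble.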
